A study of Mus musculus with 32 samples.

Results

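The genes described here are 3 cytochrome P450 genes of the mouse Cyp4a cluster, Cyp4a10, Cyp4a14 and Cyp4a31, and 7 genes of retinoid handling, Rbp2, Lrat, Bco1, Retsat, Rdh10, Dhrs3 and Aldh1a1. They were chosen by symbol, with earlier results of these data known, and all 10 were found among the 50686 genes of the deposited tables. RNA was measured by polyA RNA-seq in cells sorted from the intestine of mice of strain C57BL6: stem cells with high Lgr5-eGFP signal and progenitors with low signal. Both gates took EpCAM-positive cells with low or no CD24, and left out cells stained for CD45, CD31, Ter119 or 7AAD. KO mice carried Cpt1a fl/fl alleles together with Villin-CreER and Lgr5-GFP-IRES-CreER. WT mice carried the same pair of drivers without the floxed alleles, so every mouse had an inducible Cre under the villin promoter, which is active along the intestinal epithelium, and another under Lgr5. Mice of each genotype were fed a High Fat (HF) or a High Fat Control (HFC) diet. Each population thus had 4 groups, KO on HF, WT on HF, KO on HFC and WT on HFC, with 4 libraries a group and 32 in all. The labels give 2 libraries of female and 2 of male mice in each group and no ages, so a group came from at least 2 mice. Nothing says that the libraries of 1 sex came from separate mice, so p-values measure the spread between these libraries, which may be in part technical. Stem cells and progenitors may also have been sorted from the same mice, and tests between the populations took all 32 libraries as independent. The libraries of a group are called a to d here, letters that do not pair libraries across groups.

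Enzymes of the Cyp4a family are microsomal P450s that hydroxylate fatty acids at the end of the chain, the first step of omega-oxidation, and in mouse liver they are classic targets of PPAR alpha. Retinoid handling in the intestine starts with cleavage of carotenoids or uptake of retinol from the diet. Retinol is then bound by a cellular carrier and esterified for export in chylomicrons, while a smaller part is oxidised through retinal to retinoic acid, the ligand of the retinoic acid receptors. CPT1A, the gene product deleted here, loads long-chain fatty acids onto carnitine for oxidation in mitochondria.

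The Cyp4a genes lie side by side on chromosome 4 of GRCm38, the mm10 assembly, in the GENCODE annotation. Cyp4a10 (ENSMUSG00000066072) spans 115518264 to 115533649 on the plus strand, Cyp4a31 (ENSMUSG00000028712) spans 115563649 to 115579015 on the plus strand, and Cyp4a14 (ENSMUSG00000028715) spans 115486200 to 115496142 on the minus strand. A 4th gene of the cluster that is no member of the set, Cyp4a32 (115600969 to 115621602, plus strand), is described with them because its coding sequence was 97.2% identical to that of Cyp4a10. Cyp4a31 was 96.6% and Cyp4a14 75.3% identical to Cyp4a10 over the coding sequence. The first 90 coding bases, from the GENCODE transcripts, are shown because they let a reader see how few bases separate the copies to which reads had to be assigned. Bases that differ from Cyp4a10 are in capitals.
Cyp4a10: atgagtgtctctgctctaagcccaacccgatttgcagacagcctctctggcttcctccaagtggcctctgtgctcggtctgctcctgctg
Cyp4a32: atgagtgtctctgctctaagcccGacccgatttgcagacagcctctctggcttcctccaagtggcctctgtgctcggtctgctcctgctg
Cyp4a31: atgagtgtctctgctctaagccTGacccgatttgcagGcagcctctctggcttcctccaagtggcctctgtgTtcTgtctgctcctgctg
Cyp4a14: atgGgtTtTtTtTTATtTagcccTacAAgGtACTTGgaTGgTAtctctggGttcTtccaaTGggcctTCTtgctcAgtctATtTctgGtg
The stretches are at chr4:115518322-115518411 for Cyp4a10, chr4:115600975-115601064 for Cyp4a32 and chr4:115563717-115563806 for Cyp4a31, all on the plus strand, and at chr4:115496024-115496113 on the minus strand for Cyp4a14. Cyp4a32 differed from Cyp4a10 at 1 of these bases, Cyp4a31 at 5 and Cyp4a14 at 34. Of all 50-base windows of the Cyp4a10 transcript, 30.5% were found unchanged in another Cyp4a transcript, as were 46.8% of those of Cyp4a32 and 20.1% of those of Cyp4a31. None of the windows of Cyp4a14 was shared. Counts of Cyp4a10, Cyp4a31 and Cyp4a32 are therefore uncertain to the extent that reads were split between them, and counts of Cyp4a14 are not open to that uncertainty.

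The promoters of the genes of retinol binding, retinol saturation and carotene cleavage are shown because 2 of these 3 genes, Rbp2 and Retsat, passed the test in a diet comparison and the third, Bco1, held an exact match to one of the motifs searched. They were chosen with the matches known, so the shares over all windows only say how common each match is. Of the 10 genes, 6 had a promoter in the RefSeq table (GRCm38.p6), with 9 windows between them. The 250 bases before the start are given in the direction of transcription, with TATAAA on that strand and the direct repeat of AGGTCA with 1 base between its copies (either strand, up to 2 mismatches) in capitals.
Rbp2: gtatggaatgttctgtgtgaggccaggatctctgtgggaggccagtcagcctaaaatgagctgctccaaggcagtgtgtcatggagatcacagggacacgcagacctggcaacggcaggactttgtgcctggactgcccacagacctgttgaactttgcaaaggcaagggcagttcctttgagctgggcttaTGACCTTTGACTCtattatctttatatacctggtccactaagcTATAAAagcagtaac
Retsat: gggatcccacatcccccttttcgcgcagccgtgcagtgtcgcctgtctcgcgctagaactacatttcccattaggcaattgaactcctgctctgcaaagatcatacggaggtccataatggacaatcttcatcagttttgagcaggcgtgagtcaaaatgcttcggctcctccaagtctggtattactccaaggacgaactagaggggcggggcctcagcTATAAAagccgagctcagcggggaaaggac
Bco1: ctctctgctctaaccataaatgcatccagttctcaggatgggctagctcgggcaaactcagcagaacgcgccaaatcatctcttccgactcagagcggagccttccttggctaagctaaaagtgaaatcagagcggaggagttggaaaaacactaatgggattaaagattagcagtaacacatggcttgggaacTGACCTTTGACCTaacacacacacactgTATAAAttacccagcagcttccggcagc
The windows lie at chr9:98490287-98490536 for Rbp2, chr6:72598352-72598601 for Retsat and chr8:117095615-117095864 for Bco1, all on the plus strand. The start meant here is that of RefSeq, which differs from the GENCODE gene spans. In GENCODE, Rbp2 begins at 98486115, so its window lies inside the gene, and Retsat (72598475) and Bco1 (117095854) begin within their windows. A direct repeat of this spacing is the arrangement on which dimers of the retinoid X receptor, with PPARs among the partners, are known to bind. Bco1 held it without mismatch on the minus strand, 56 to 44 bases before the start, and 0.0335% of 32851 promoter windows of the same length did so. Rbp2 held it with 2 mismatches on the minus strand, 58 to 46 bases before the start, a match found in 3.24% of windows. AGGTCA alone was in 14% of windows. The spacing associated with retinoic acid receptors, with 5 bases between the copies of AGGTCA, was found with 2 mismatches in Retsat, 153 to 137 bases before the start, and with up to 2 mismatches in 2.33% of windows. TATAAA, on either strand, was found in the 3 windows shown and in none of the other 6 windows of these genes, and 12.4% of all windows hold it. These matches describe letters and are not evidence of binding.

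Library totals ran from 3307711 to 7337425 counts, with a median of 5655066.5. Cpt1a, checked first, had between 18.8 and 30.5 CPM (depth-scaled counts, with library sizes set by the TMM method) in all 16 KO libraries and between 119 and 346 CPM in all 16 WT libraries. Summed CPM of 10 stem cell markers lay between 13900 and 19100 in stem cells and between 3060 and 7640 in progenitors. Summed CPM of 22 enterocyte markers lay between 2150 and 3030 in stem cells and between 3360 and 7730 in progenitors, and no enterocyte or goblet marker was at 0 in any whole group. Summed markers of white blood cells reached at most 5.15 CPM in a library. Xist exceeded Ddx3y in libraries a and b of each of the 8 groups, while Ddx3y exceeded Xist in c and d. In bulk libraries such as these, a change in the share of a cell type and a change in RNA per cell cannot be told apart.

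The levels set the genes apart before any comparison. Per length, in TPM (depth-scaled transcript levels, the deposited values taken out of log2), the median over progenitor libraries was 186 for Rbp2 and 173 for Retsat, and the median over stem cell libraries was 144 for Retsat, 41.7 for Dhrs3, 20.8 for Rdh10 and 19.4 for Rbp2. Lrat had a median of 12.1 TPM in stem cells and 6.99 TPM in progenitors. Cyp4a10 ran from 0.25 to 70.2 TPM in progenitors and from 0.71 to 14.3 TPM in stem cells, where its median was 2.69 TPM. Aldh1a1 had a median of 3.65 TPM in stem cells and 6.12 TPM in progenitors, and Bco1 had 2.43 TPM in stem cells and 2.59 TPM in progenitors. The filter on low counts was passed by 8 of the 10 genes and not by Cyp4a14 and Cyp4a31.

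**Figure D1:**
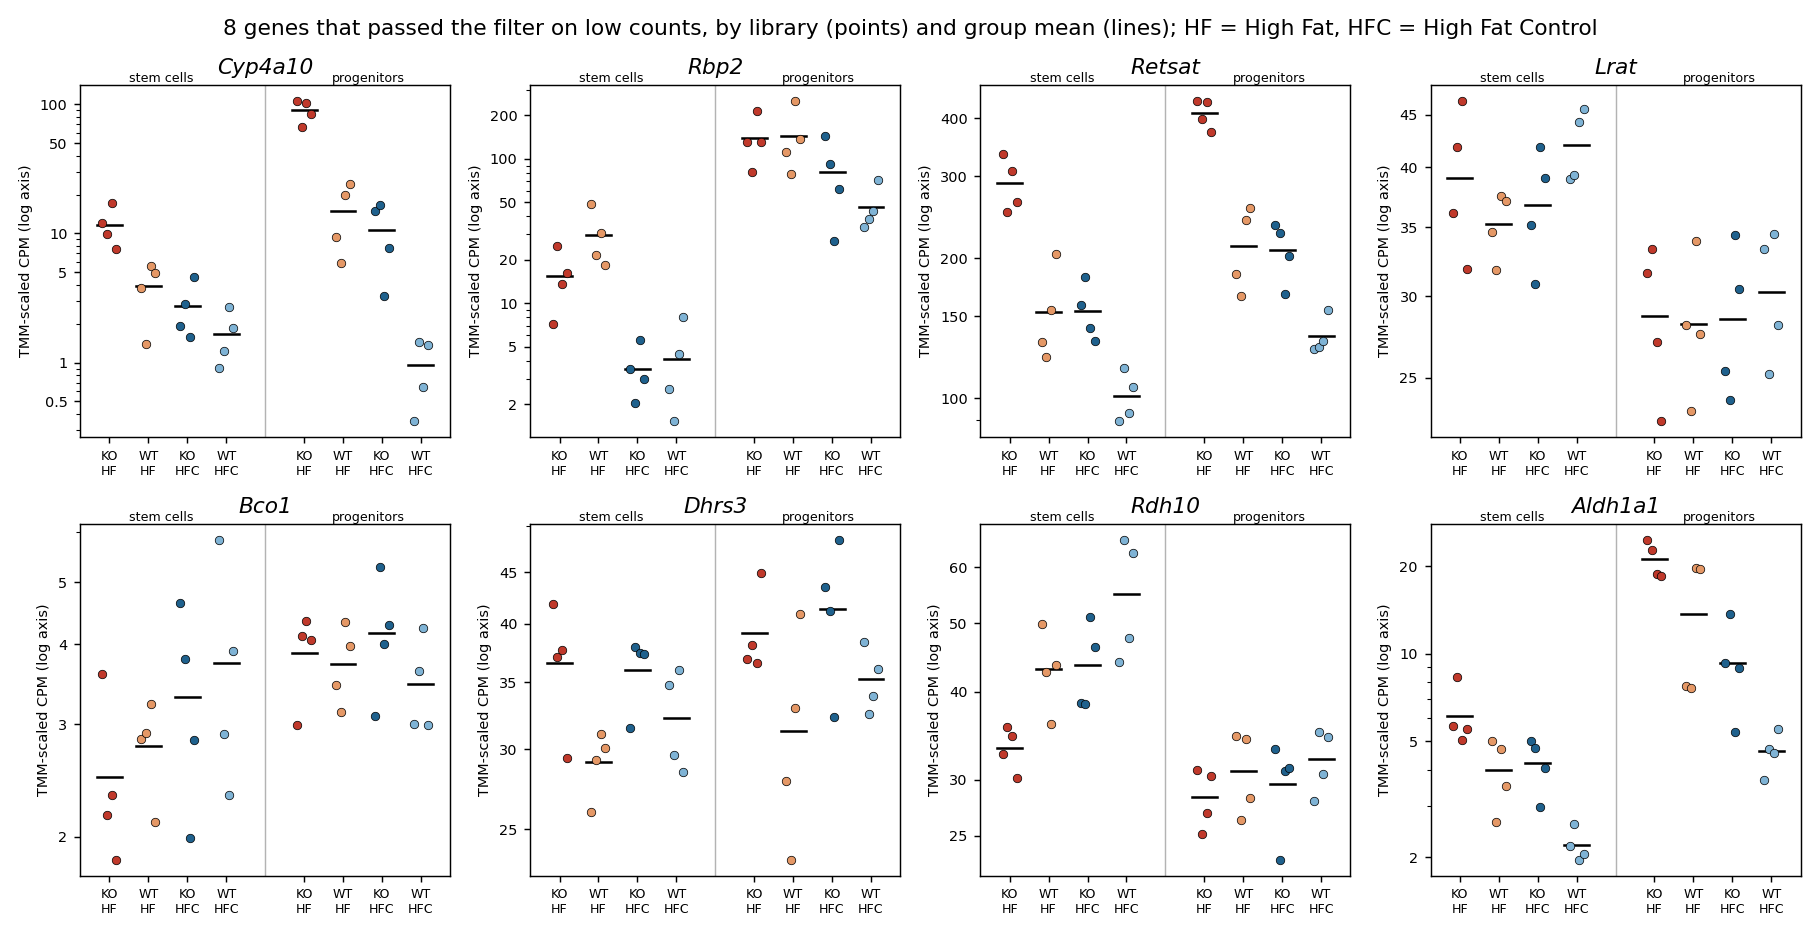
TMM-scaled CPM (log axes that differ between panels) of the 8 genes that passed the filter, with a point for each library and a line for the mean of its 4 libraries, stem cells left and progenitors right in each panel. Cyp4a10 and Retsat have their highest points in KO progenitors on HF, Rbp2 is higher in progenitors, and Lrat, Bco1 and Dhrs3 show little separation between the groups of a population.

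Cyp4a10, a fatty acid omega-hydroxylase, was called higher in KO progenitors on HF both against KO progenitors on HFC and against WT progenitors on HF. KO progenitors on HF had 106, 66.8, 103 and 84.2 CPM in libraries a to d, WT progenitors on HF had 9.31, 5.92, 20 and 24.1 CPM, KO progenitors on HFC had 15, 16.5, 3.3 and 7.71 CPM, and WT progenitors on HFC had 0.353, 1.45, 0.652 and 1.38 CPM. Every KO HF library lay above every library of the other 3 groups, every WT HFC library lay below them, and the WT HF and KO HFC groups overlapped. In edgeR's quasi-likelihood test with Benjamini-Hochberg adjustment over all genes, the diet difference in KO progenitors was 3.06 ± 0.45 (log2 fold change ± SE) with an adjusted p of 0.00779, an 8.36-fold higher level on HF. The genotype difference on HF was 2.63 ± 0.44 with an adjusted p of 0.0122, 6.2-fold higher in KO. Both calls turned on a single library: without library d of KO HFC the adjusted p of the first was 0.0568, within 0.00454 to 0.0568 over 16 leave-one-out fits, and without library a of WT HF that of the second was 0.0662, within 0.00393 to 0.0662.

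The same gene missed the threshold in the other progenitor comparisons although the groups did not overlap there. The diet difference in WT progenitors was 3.87 ± 0.71 on the log2 scale, with an adjusted p of 0.0764, and the genotype difference on HFC was 3.44 ± 0.73, with an adjusted p of 0.0897. Both fold changes rest on a WT HFC group that held 2, 8, 2 and 6 counts, so they are loosely set. DESeq2 called both differences, with the first at 3.93 ± 0.63 and an adjusted p of 1.23e-06, where the adjusted p of the first ran from 1.23e-06 to 0.145 over 6 other settings. Within WT progenitors on HF, libraries a and b, those with more Xist, had 9.31 and 5.92 CPM, and libraries c and d had 20 and 24.1 CPM. KO progenitors on HFC went the other way, with 15 and 16.5 CPM in a and b and 3.3 and 7.71 CPM in c and d. In the remaining progenitor groups these pairs of libraries overlapped.

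In stem cells Cyp4a10 was low and passed the test in no diet or genotype comparison. KO stem cells on HF had 12.1, 9.82, 17.1 and 7.55 CPM, WT stem cells on HF had 3.79, 1.39, 5.58 and 4.92 CPM, KO stem cells on HFC had 1.93, 2.84, 1.59 and 4.59 CPM, and WT stem cells on HFC had 0.91, 1.22, 2.67 and 1.86 CPM. The KO HF libraries were again above all others of the population. The diet difference in KO stem cells was 2.08 ± 0.41 with an adjusted p of 0.0719, and 4 of 6 other settings called it, with adjusted p from 0.00276 to 0.506. The genotype difference on HF was 1.60 ± 0.39 with an adjusted p of 0.112 in edgeR, and DESeq2 (0.0402) and edgeR with Xist as a covariate (0.042) called it.

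Ordered by mean, Cyp4a10 had 89.9 ± 18 CPM (SD, n = 4) in KO progenitors on HF, 14.8 ± 8.6 in WT progenitors on HF, 11.6 ± 4.07 in KO stem cells on HF, 10.6 ± 6.23 in KO progenitors on HFC, 3.92 ± 1.84 in WT stem cells on HF, 2.74 ± 1.34 in KO stem cells on HFC, 1.67 ± 0.778 in WT stem cells on HFC and 0.96 ± 0.543 in WT progenitors on HFC. Of the 7 steps between neighbours in that order, the first was the single one at which the libraries of the neighbouring groups did not overlap. Averaged over genotypes, the diet effect was smaller in stem cells than in progenitors by 1.86 ± 0.56 on the log2 scale, with an unadjusted p of 0.00263 and an adjusted p of 0.866. For the genotype effect, averaged over diets, the difference between the populations was -1.85 ± 0.56, with an unadjusted p of 0.0027 and an adjusted p of 1.

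Cyp4a14, the other well-known inducible omega-hydroxylase of mouse liver, was at 0 counts in all 32 libraries. The upper limit that 3 counts set was 0.0169 CPM over the summed libraries and 0.409 to 0.907 CPM in single libraries, from counting error alone. Of 20831 protein-coding genes matched, 18.6% were at 0 throughout. Cyp4a31 held 14 counts in all and at most 4 in a library, so no comparison of it was possible. Cyp4a12a, Cyp4a12b, Cyp4a29 and Cyp4a30b were also at 0 in every library.

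Cyp4a32 was the copy with most of the remaining counts, 1007 in all against 2990 for Cyp4a10. Cyp4a10 held 93.1% of the counts of the 3 near-identical copies in KO progenitors on HF (exact 95% interval 92 to 94.2), 86.1% in WT progenitors on HF (82 to 89.6), 78.3% in KO progenitors on HFC (73.5 to 82.6) and 37.5% in WT progenitors on HFC (24 to 52.6). In stem cells its share was 51.1% for KO on HF (46.6 to 55.7), 33.3% for WT on HF (27.8 to 39.2), 30.1% for KO on HFC (23.9 to 36.9) and 19.4% for WT on HFC (14.1 to 25.6). The intervals cover counting error only and take the authors' division of shared reads as given. Cyp4a32 averaged 6.47 ± 1.98 CPM in KO progenitors on HF, 2.21 ± 0.445 in WT progenitors on HF, 2.8 ± 1.17 in KO progenitors on HFC and 1.67 ± 0.998 in WT progenitors on HFC, and was called in none of these comparisons. With the Cyp4a counts summed into 1 gene, the sum was called in KO progenitors by diet (2.81 ± 0.34, adjusted p 0.0024) and in HF progenitors by genotype (2.53 ± 0.33, adjusted p 0.00145) in edgeR. It was also called in WT progenitors by diet, at 2.67 ± 0.46 (adjusted p 0.0458) against 3.87 for Cyp4a10 alone, and not by genotype in HFC progenitors, at 2.39 ± 0.46 (adjusted p 0.0507) against 3.44 alone. In stem cells the summed differences were smaller than those of Cyp4a10 alone and none was called. By diet they were 0.41 in WT (1.19 alone) and 1.31 in KO (2.08 alone), and by genotype 0.97 on HF (1.60 alone) and 0.07 on HFC (0.72 alone).

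**Figure D2:**
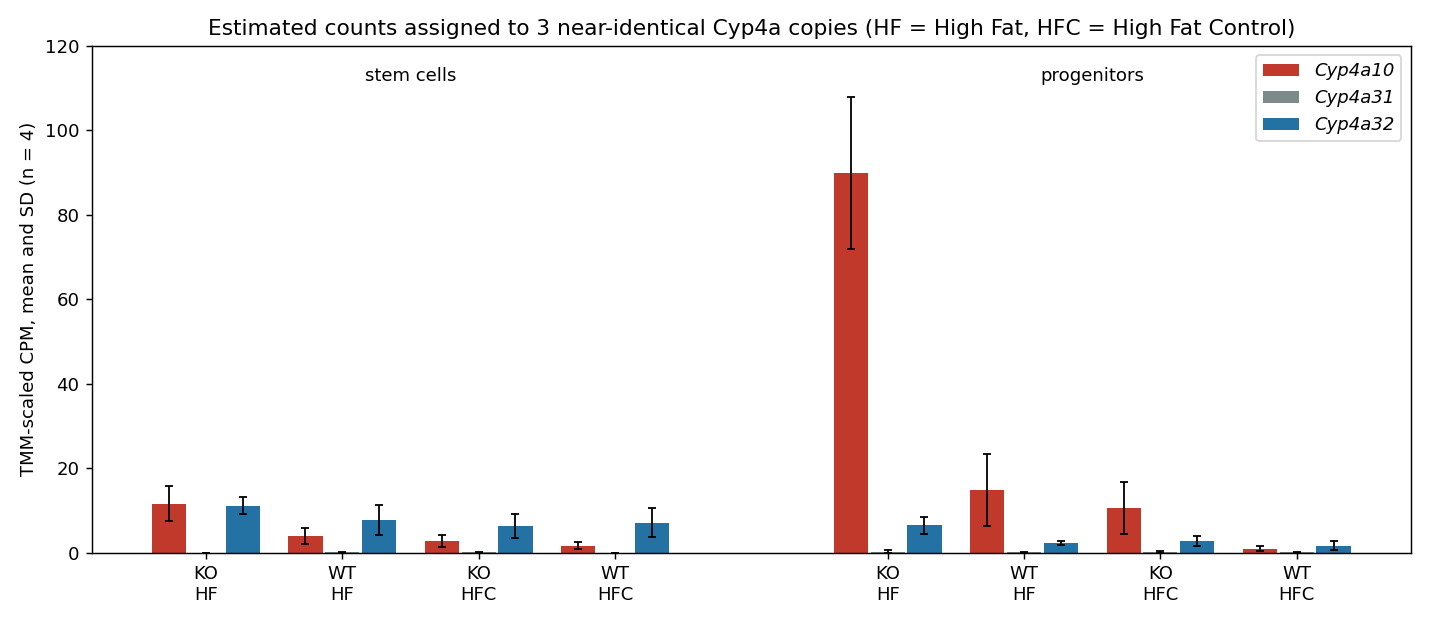
Mean TMM-scaled CPM with SD (n = 4 libraries) of Cyp4a10, Cyp4a31 and Cyp4a32 in each group, stem cells left and progenitors right. Cyp4a10 reaches 89.9 CPM in KO progenitors on HF, Cyp4a32 stays between 1.67 and 11.1 CPM on average, and Cyp4a31 is near 0 throughout.

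Rbp2 (ENSMUSG00000032454; chromosome 9, 98486115 to 98509781, plus strand) encodes the retinol carrier of small intestinal enterocytes, which hands retinol to the esterifying enzyme. A gene model on the same strand, Gm37113, overlaps it over 1157 bases. Rbp2 was the only one of the 10 genes called by diet in WT stem cells. WT stem cells on HF had 48.8, 21.5, 30.9 and 18.5 CPM, against 2.55, 1.53, 4.45 and 8 CPM in WT stem cells on HFC. The groups did not overlap, and the difference was 2.87 ± 0.49 on the log2 scale, 7.32-fold, with an edgeR adjusted p of 0.0409. The call was kept in 8 of 16 leave-one-out fits and in 4 of 6 other settings, with adjusted p from 1.69e-06 to 0.112 over both. It was lost without library a, b or c of WT HFC, without a, c or d of WT HF, without a of KO HFC and without c of KO HF, and the log2 difference lay between 2.52 and 3.40 over all 16 fits.

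KO stem cells on HF had 7.18, 25.1, 13.5 and 16.1 CPM of Rbp2, against 3.48, 2.05, 5.56 and 3 CPM in KO stem cells on HFC. These groups did not overlap either, but the log2 difference of 2.17 ± 0.51 had an edgeR adjusted p of 0.232, and of 6 other settings DESeq2 alone called it (0.00417). The genotype difference was -0.95 ± 0.43 in stem cells on HF (adjusted p 0.764) and -0.24 ± 0.56 on HFC (adjusted p 1), and the interaction of genotype and diet was -0.71 ± 0.71 (adjusted p 0.999).

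In progenitors Rbp2 was higher and spanned more CPM, 26.9 to 252 against 1.53 to 48.8 in stem cells. KO progenitors on HF had 130, 80.9, 213 and 131 CPM, WT progenitors on HF had 112, 78.9, 252 and 137 CPM, KO progenitors on HFC had 144, 91.9, 26.9 and 62 CPM, and WT progenitors on HFC had 33.7, 38.1, 43.7 and 70.9 CPM. Only the WT groups separated by diet, with a log2 difference of 1.64 ± 0.51 and an adjusted p of 0.533. In KO progenitors the diet difference was 0.76 ± 0.49 (adjusted p 0.65), and the genotype difference on HF was -0.05 ± 0.48 (adjusted p 0.985).

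Marker levels of other epithelial cells moved with some of these groups. In stem cells, summed goblet markers (10 genes, none at 0 in a whole group) lay between 800 and 923 CPM for WT on HF and between 261 and 549 CPM for WT on HFC, and between 561 and 915 CPM for KO on HF and 318 and 637 CPM for KO on HFC. Summed enterocyte markers lay between 2210 and 3030 CPM for WT on HF and between 2150 and 2660 CPM for WT on HFC. In that comparison 15 of 21 tested enterocyte markers had a positive log2 difference, with a median of 0.79 against 0.01 over all genes, and none was called. Summed Paneth markers (8 genes, none at 0 in a whole group) lay between 1460 and 2630 CPM for WT stem cells on HF and between 218 and 2480 CPM for WT stem cells on HFC, and in progenitors between 14400 and 25200 CPM on HF and between 3920 and 15700 CPM on HFC, over both genotypes. Tuft markers were scarce, but their sums separated by diet in WT stem cells, at 11.4 to 13.5 CPM on HF and 4.73 to 8.56 CPM on HFC. Summed enteroendocrine markers lay between 17.6 and 55.2 CPM for WT stem cells on HF and between 6.01 and 46 CPM for WT stem cells on HFC. Of the goblet and Paneth markers, Klk1 (0.96, adjusted p 0.0409) and Habp2 (1.11, adjusted p 0.0312) were called. By genotype on HF, 5 of 21 enterocyte markers were positive in stem cells and 2 of 21 in progenitors, with a median of -0.47 in both and no call. The part of these levels in the diet differences of Rbp2, and in the diet and genotype differences of Cyp4a10 and Retsat, was not tested.

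**Figure D3:**
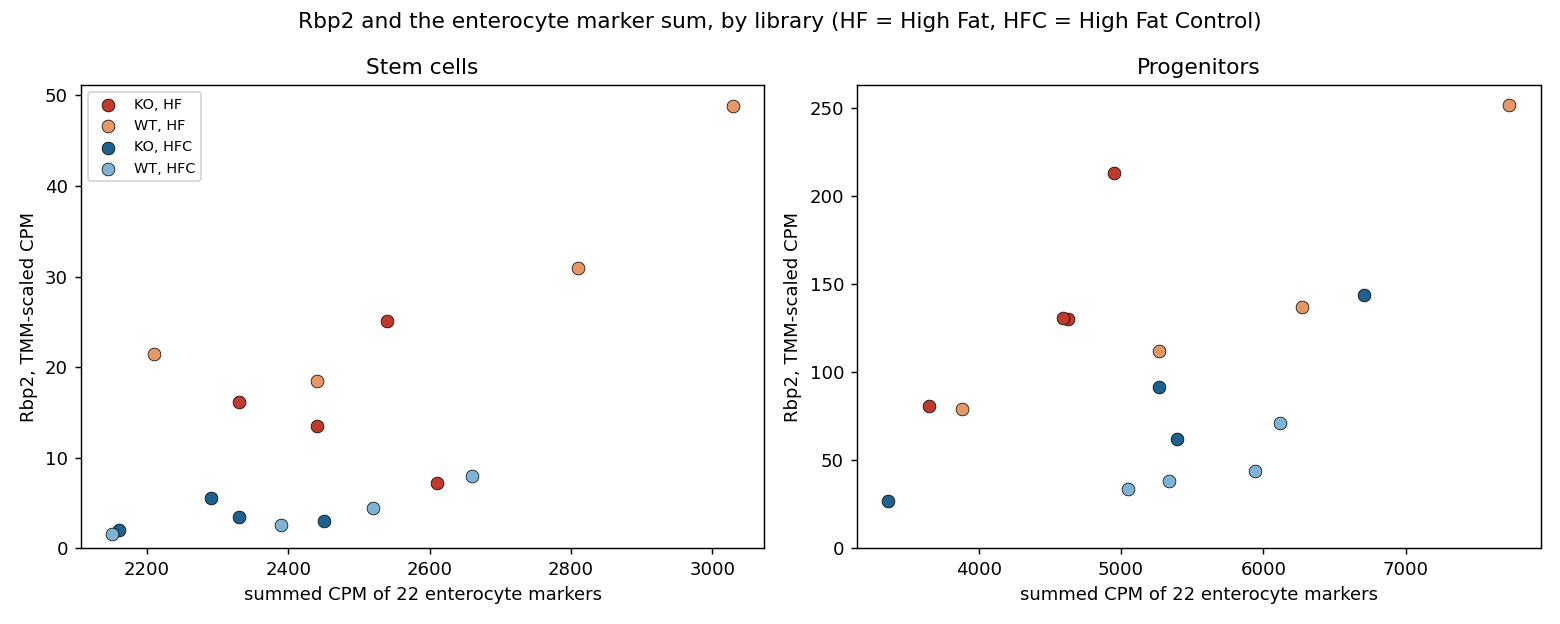
Rbp2 (TMM-scaled CPM) against the summed CPM of 22 enterocyte markers in each library, stem cells left and progenitors right, with a point for each library coloured by group. In stem cells the 4 WT HF libraries lie between 18.5 and 48.8 CPM of Rbp2 and the 4 WT HFC libraries between 1.53 and 8 CPM, while their marker sums overlap.

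Lrat (ENSMUSG00000028003; chromosome 3, 82892579 to 82903973, minus strand), which esterifies the retinol that RBP2 carries, was called in no diet or genotype comparison. It had 34.6, 31.8, 37.5 and 37.1 CPM in WT stem cells on HF, against 39, 39.3, 44.3 and 45.6 CPM in WT stem cells on HFC. These groups did not overlap, and the log2 difference was -0.25 ± 0.13 with an adjusted p of 0.454. Over the remaining 6 groups Lrat lay between 22.7 and 46.4 CPM. The span of an antisense gene, Rbm46os, covers that of Lrat over all 11395 bases, introns included. Overlap of exons was not measured, and the strand setting of the counting was not given in the sources used here. Whether reads of the pair were mixed is therefore not known.

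Bco1 (ENSMUSG00000031845; chromosome 8, 117095854 to 117133720, plus strand), which cleaves beta-carotene into retinal, stayed between 1.84 and 5.83 CPM in all 32 libraries and was called in no diet or genotype comparison. A processed pseudogene, Gm20694, lies over 404 bases of it on the same strand. Its log2 difference by diet was -0.43 ± 0.33 in WT stem cells and -0.40 ± 0.34 in KO stem cells, and 0.11 ± 0.24 in WT progenitors and -0.11 ± 0.23 in KO progenitors. The groups held 54 to 99 counts each.

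Retsat (ENSMUSG00000056666; chromosome 6, 72598475 to 72608425, plus strand) encodes the saturase that converts retinol to a dihydroretinol, and it was the gene of the set with the most calls. In progenitors, KO on HF had 436, 399, 434 and 374 CPM, WT on HF had 185, 166, 242 and 257 CPM, KO on HFC had 236, 227, 168 and 202 CPM, and WT on HFC had 128, 129, 133 and 155 CPM. The KO HF libraries stood above all others, the WT HFC libraries below all others, and the 2 groups between them overlapped. The diet difference in KO progenitors was 0.98 ± 0.13, 1.97-fold, with an adjusted p of 0.0026. The genotype difference on HF was 0.96 ± 0.13, 1.95-fold, with an adjusted p of 0.000604. Both calls were kept in all 16 leave-one-out fits and all 6 other settings, with adjusted p of at most 0.017 for the first and 0.00508 for the second.

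In stem cells Retsat was lower, with KO on HF again above and WT on HFC again below all other libraries. KO on HF had 336, 251, 308 and 264 CPM, WT on HF had 132, 123, 155 and 204 CPM, KO on HFC had 159, 182, 142 and 133 CPM, and WT on HFC had 89.4, 116, 92.8 and 106 CPM. The genotype difference on HF was 0.92 ± 0.15, with an adjusted p of 0.00519 and a call in all 16 leave-one-out fits. The diet difference in KO was 0.92 ± 0.15, with an adjusted p of 0.0246, and was called in 11 of 16 leave-one-out fits (adjusted p 0.00371 to 0.142), with the call lost without library a, c or d of KO HFC and without a or c of KO HF.

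The remaining Retsat differences had the same sign and missed the threshold in edgeR, while DESeq2 called all 4, with adjusted p from 0.00284 to 0.0406. By diet in WT they were 0.61 ± 0.15 in stem cells (adjusted p 0.0922) and 0.64 ± 0.13 in progenitors (adjusted p 0.0926). By genotype on HFC they were 0.60 ± 0.15 in stem cells (adjusted p 0.199) and 0.62 ± 0.13 in progenitors (adjusted p 0.0556). Retsat separated without overlap in all 8 comparisons. The 4 comparisons of a population share libraries, so they are not independent of each other. The interaction of genotype and diet was 0.32 ± 0.21 in stem cells and 0.34 ± 0.18 in progenitors, with adjusted p of 0.999 and 0.969. A gene model, Gm45053, lies over 2499 bases of the span of Retsat on the opposite strand, introns included, with the same limits.

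Aldh1a1 (ENSMUSG00000053279; chromosome 19, 20492715 to 20643465, plus strand), which oxidises retinal to retinoic acid, was also highest in KO on HF and lowest in WT on HFC by mean in both populations, without passing the test in edgeR. DESeq2 called it by diet in WT progenitors (1.56 ± 0.36, adjusted p 0.00631) and in KO progenitors (1.18 ± 0.33, adjusted p 0.0484), and the first was also called in 1 of 16 leave-one-out fits, without library b of WT on HF (0.0458). In progenitors, KO on HF had 24.7, 22.7, 18.8 and 18.6 CPM, WT on HF had 7.76, 7.66, 19.8 and 19.6 CPM, KO on HFC had 9.27, 13.7, 5.39 and 8.91 CPM, and WT on HFC had 3.7, 4.72, 4.56 and 5.53 CPM. WT on HF fell into 2 pairs, libraries a and b (more Xist) low and c and d high, and the high pair overlapped with KO on HF. Both KO groups went the other way between a and b and c and d. These were 24.7 and 22.7 against 18.8 and 18.6 CPM on HF, and 9.27 and 13.7 against 5.39 and 8.91 CPM on HFC. The log2 difference by diet was 1.55 ± 0.34 in WT (adjusted p 0.169) and 1.18 ± 0.30 in KO (adjusted p 0.14), and the groups did not overlap in either. By genotype it was 0.66 ± 0.30 on HF (adjusted p 0.449) and 1.02 ± 0.35 on HFC (adjusted p 0.59).

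Stem cell levels of Aldh1a1 were lower. KO on HF had 5.64, 8.32, 5.06 and 5.51 CPM, WT on HF had 5.01, 2.65, 4.72 and 3.52 CPM, KO on HFC had 5.03, 4.74, 2.98 and 4.06 CPM, and WT on HFC had 2.18, 2.6, 1.96 and 2.05 CPM. All log2 differences in stem cells were positive, from 0.56 ± 0.25 for diet in KO to 0.92 ± 0.27 for genotype on HFC, and none was called. The coding sequence is 91.6% identical to that of its neighbour Aldh1a7, and 6.54% of the 50-base windows of Aldh1a1 occur there. C730002L08Rik covers 59616 bases and Gm6684 covers 685 bases of the span of Aldh1a1 on the opposite strand, introns included. Overlap of exons was not measured and the strand setting is not known, so whether their reads were mixed with those of Aldh1a1 is not known.

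Rdh10 (ENSMUSG00000025921; chromosome 1, 16105774 to 16133734, plus strand), which oxidises retinol to retinal, had its highest values in WT stem cells on HFC and was called in no diet or genotype comparison. KO stem cells on HF had 32.6, 35.6, 34.6 and 30.2 CPM, WT stem cells on HF had 49.9, 42.7, 36 and 43.6 CPM, KO stem cells on HFC had 38.5, 38.4, 51.1 and 46.3 CPM, and WT stem cells on HFC had 44.1, 65.7, 47.6 and 62.9 CPM. The KO HF libraries lay below all others of the population. All 4 log2 differences in stem cells were negative, between -0.38 ± 0.14 for diet in KO and -0.35 ± 0.14 for genotype on HFC, with adjusted p of at least 0.337. In progenitors Rdh10 lay between 23.1 and 35.1 CPM, and its log2 differences were within -0.12 to -0.06.

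Dhrs3 (ENSMUSG00000066026; chromosome 4, 144892827 to 144928209, plus strand), which reduces retinal back to retinol, lay between 26 and 41.9 CPM in stem cells and between 23.3 and 48.5 CPM in progenitors. Its largest differences were by genotype on HF, at 0.33 ± 0.12 in stem cells (adjusted p 0.558) and 0.34 ± 0.15 in progenitors (adjusted p 0.433), with groups that overlapped in both.

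Counted over the set, calls were few, and so were calls over all genes. The genes were chosen with earlier results of these data known, so the shares over all genes give scale and are no test of the set. By diet in WT stem cells 1 of the 8 tested genes was called, Rbp2, higher on HF, where 0.25% of 12409 genes were called. By diet in KO stem cells 1 of 8 was called, Retsat, against 0.0645% of genes, and by genotype in HF stem cells 1 of 8, Retsat, against 0.443%. By diet in KO progenitors 2 of 8 were called, Cyp4a10 and Retsat, against 0.313% of 12460 genes, and by genotype in HF progenitors the same 2 genes, against 0.706%. All of these were higher on HF or in KO. No gene of the set was called by genotype in HFC stem cells (0.242% of genes called), by diet in WT progenitors (0.0883%) or by genotype in HFC progenitors (0.257%) in edgeR. At an unadjusted p under 0.05 these 3 comparisons held 3, 4 and 3 of the 8 genes and 587, 880 and 723 genes in all, and DESeq2 called 1, 3 and 2 of the set and 58, 44 and 78 genes in all. The median log2 difference of the 8 genes ran from -0.01 (genotype, HFC stem cells) to 0.45 (genotype, HFC progenitors), beside medians of all genes between 0 and 0.01.

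The same limit from how the genes were chosen holds for separation of the libraries, counted beside the calls in either direction. Separation was seen for more of the genes. By diet it held for 4 of 8 genes in WT stem cells (6.62% of all genes), 5 of 8 in KO stem cells (3.22%), 4 of 8 in WT progenitors (4.02%) and 3 of 8 in KO progenitors (5.71%). By genotype it held for 4 of 8 in HF stem cells (3.55%), 2 of 8 in HFC stem cells (3.92%), 2 of 8 in HF progenitors (7.1%) and 2 of 8 in HFC progenitors (3.2%). Retsat was the one gene that separated in all 8 comparisons. All separations were toward higher levels on HF or in KO except those of Lrat and Rdh10. Lrat was lower on HF in WT stem cells. Rdh10 was lower on HF in KO stem cells, and lower in KO than in WT stem cells on HF. The interaction of genotype and diet was called for no gene in edgeR in either population (0% of genes), with 444 genes in stem cells and 561 in progenitors at an unadjusted p under 0.05, none of them among the 8. The same held for differences of the diet or genotype effect between populations (0% of 13088 genes), where 686 and 393 genes and 4 and 1 of the set had an unadjusted p under 0.05. DESeq2 called 1 gene, no member of the set, for the difference of the genotype effect and none in the other 3.

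**Figure D4:**
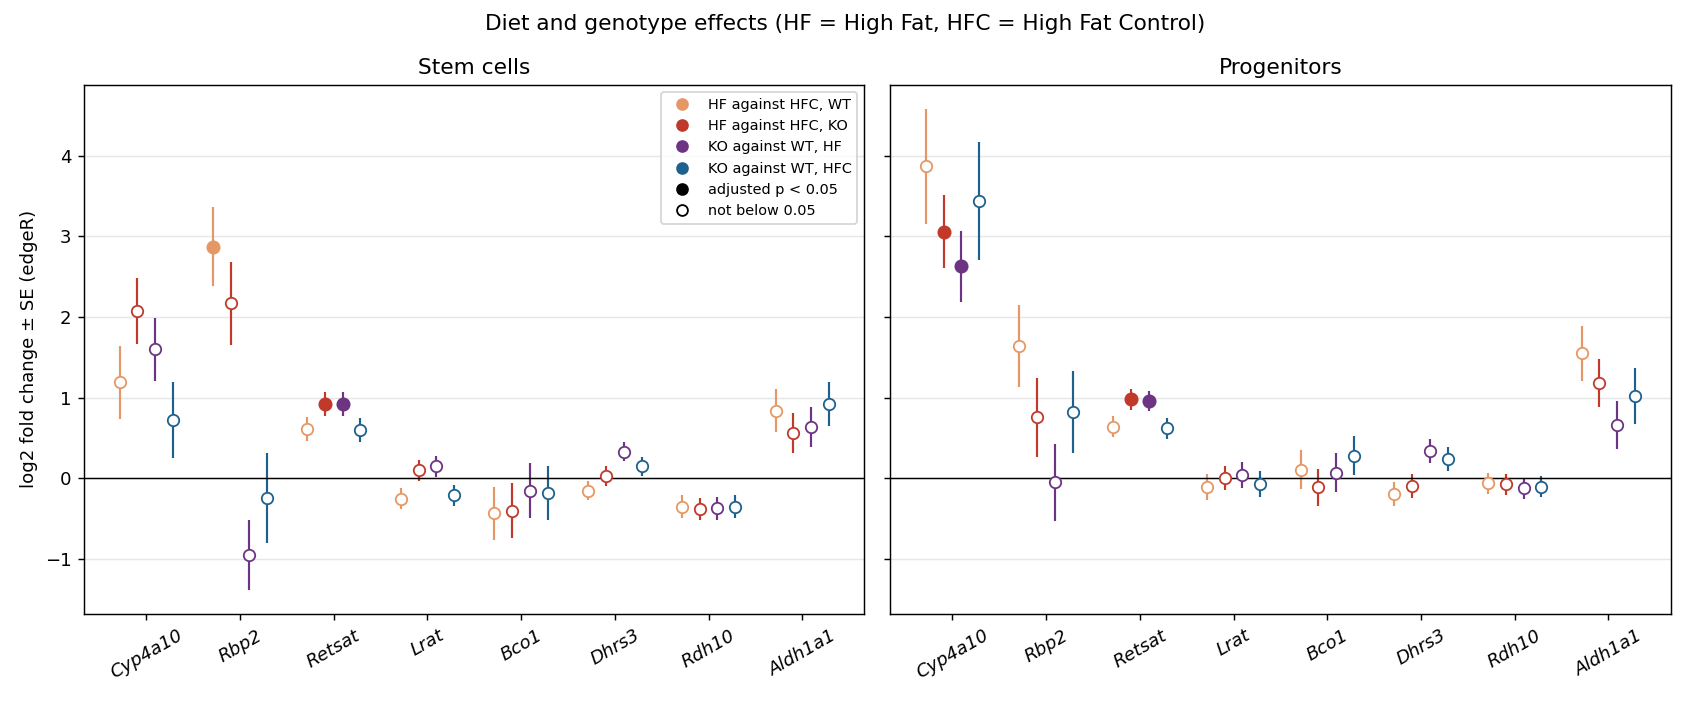
Log2 fold changes with SE from edgeR for the 4 diet and genotype comparisons in stem cells (left) and progenitors (right), filled where the adjusted p was below 0.05. Retsat is positive in all 8 comparisons, Cyp4a10 spans 0.72 to 3.87, and Lrat, Bco1, Dhrs3 and Rdh10 lie between -0.43 and 0.34 with no filled point.

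Between the populations 6 of the 8 genes were called, where 63.5% of 13088 genes were. Any pairing of the populations by mouse was not modelled. In stem cells against progenitors, averaged over the 4 conditions, Rbp2 fell by 3.37 on the log2 scale (SE 0.27), a level 10.4-fold lower in stem cells, with an adjusted p of 4.31e-11. Aldh1a1 fell by 1.44 (SE 0.15, adjusted p 1.29e-09) and Retsat by 0.46 (SE 0.07, adjusted p 2.71e-06). Rdh10 rose by 0.51 ± 0.07 (adjusted p 1.37e-07) and Lrat by 0.40 ± 0.07 (adjusted p 1.21e-05). Bco1 (-0.31 ± 0.14, adjusted p 0.0512) and Dhrs3 (-0.13 ± 0.07, adjusted p 0.094) were not called, though RLE scaling (0.0492) and Xist as a covariate (0.0404) put Bco1 past the threshold.

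Cyp4a10 was 2.87-fold lower in stem cells (log2 difference -1.52 ± 0.31, adjusted p 0.000114), while its near-copy Cyp4a32 was higher in stem cells (1.46 ± 0.20, adjusted p 2.6e-07). With the Cyp4a counts summed, the difference was -0.37 with an adjusted p of 0.121. The part of the division of reads between the copies in these opposite differences was not tested. WT on HFC had 0.91 to 2.67 CPM of Cyp4a10 in stem cells and 0.353 to 1.45 CPM in progenitors. Enterocyte markers were lower in stem cells for 16 and higher for 3 of 21 genes tested, and all 10 goblet markers were lower; the part of these cells in the difference of Rbp2 was not tested.

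Of 39 other genes of retinoid metabolism, 22 were tested in stem cells and 23 in progenitors. The one called was Dhrs4, a reductase that uses retinal among its substrates, in progenitors: it averaged 501 ± 56.5 CPM in KO on HF, 296 ± 42.4 in WT on HF, 340 ± 23.6 in KO on HFC and 210 ± 30.8 in WT on HFC. Dhrs4 was higher by diet in KO (0.55 ± 0.12, adjusted p 0.0495), by genotype on HF (0.77 ± 0.12, adjusted p 0.00184) and by genotype on HFC (0.70 ± 0.12, adjusted p 0.00894). None of the 8 other Cyp4 genes tested, of the 6 (stem cells) or 8 (progenitors) genes of the later steps of omega-oxidation, of the retinoid receptors and retinoic acid target genes tested, or of the 3 PPAR genes was called by diet or genotype in edgeR. Retinoic acid target genes had a median log2 difference by diet of 0.02 in WT and -0.08 in KO stem cells (4 of 13 tested), and of 0.03 in WT and -0.21 in KO progenitors (3 of 13 tested).

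Between populations these lists moved in both directions, in a comparison that called 63.5% of all 13088 genes tested. Of 25 other genes of retinoid metabolism tested, 15 were lower and 9 higher in stem cells, among them the retinol-binding proteins Rbp7 (-3.44 ± 0.19, adjusted p 4.18e-15) and Rbp4 (-2.99 ± 0.23, adjusted p 2.1e-12), Dgat1, an acyltransferase that can esterify retinol (-0.67 ± 0.06, adjusted p 5e-11), and Stra6l, a receptor gene for retinol-binding protein (1.64 ± 0.11, adjusted p 5.87e-13). Of 8 other Cyp4 genes 3 were lower and 3 higher, with Cyp4f40 at -2.27 ± 0.10 and Cyp4f14 at -1.98 ± 0.12. Of 8 omega-oxidation genes 6 were lower and 1 higher, with Aldh9a1 at -0.62 and the alcohol dehydrogenase Adh7 at -3.17. Ppara (-0.57), Ppard (-0.55) and Pparg (-0.72) were all lower in stem cells.

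Likeness of pattern was described by Pearson's r of log2 CPM over the 16 libraries of a population, which share their groups, and carries no test. In progenitors the genes most like Cyp4a10 were the fatty acid-binding protein gene Fabp1 (r = 0.988), malic enzyme Me1 (0.981) and the acyl-CoA dehydrogenase Acadvl (0.976). Retsat was most like Acadvl (0.993), Ech1 (0.976) and Cyp4a10 itself (0.973) in progenitors, and like Ech1 (0.961), Acadvl (0.956) and Acadl (0.954) in stem cells. Aldh1a1 in progenitors was most like Cyp4a10 (0.950), the peroxisomal transporter Abcd3 (0.935) and Fabp1 (0.934).

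Rbp2 was most like other genes. In stem cells these were the apolipoprotein genes Apoa4 (0.981), Apoc2 (0.933) and Apoa1 (0.920), of which Apoa4 and Apoa1 are on the list of enterocyte markers, and in progenitors Ugt2b5 (0.918), Fcgrt (0.909) and Ces2c (0.906). For Lrat, Dhrs3 and Rdh10 the highest values were 0.799, 0.867 and 0.862 in stem cells and 0.865, 0.920 and 0.816 in progenitors.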

How the data were processed

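RNA-seq of 32 libraries was deposited by the authors as a table of expected counts per gene and a table of log2 TPM values. Per the submitters' processing notes, STAR 2.5.3a, RSEM 1.3.0, SAMtools 1.3 and mm10 were used; the annotation and the strand setting are not given in the sources used here. Columns named the group and not the replicate or sex.

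Expected counts were rounded and tested with edgeR 4.0.16 (robust quasi-likelihood, TMM scaling, filterByExpr at a minimum count of 10, Benjamini-Hochberg adjustment over all genes, threshold 0.05), with stem cells and progenitors fitted apart (16 libraries each) and jointly for differences between them. The edgeR fit was also run on simulated counts with changes placed in the WT HF group, for the diet comparison in WT alone. That simulation did not cover the other comparisons or reads shared between Cyp4a copies. CPM are TMM-scaled; TPM are the deposited log2 values taken out of the logarithm. Alternatives were RLE scaling, no filter, summed Cyp4a counts, Xist as a covariate, DESeq2 1.42.0, limma 3.58.1 on log2 TPM and leaving out each library (R 4.3.3). Intervals and limits cover counting error only. The genes and gene lists were chosen with earlier results of these data known. All 10 genes are named, and from each other list at most 4 genes for a comparison, those with the smallest adjusted p below the threshold. Likeness names the 3 genes with the highest correlation, for genes that averaged at least 10 CPM in a population. Cyp4a32, Aldh1a7 and the genes that overlap a gene of the set are named because reads may be shared with them. Overlaps are of whole gene spans, introns included.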

Additional observations from a re-analysis of the deposited data

Results flagged for a closer look

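Dhrs3 in KO stem cells on HFC was 31.5 CPM in library a, apart from the other 3 libraries of the group, which lay between 37.3 and 37.9 CPM. The gap to the nearest library was 0.902 of the range of the group. It was the 1 such case among 64 groups of a gene and a condition. How often chance alone gives such a case was not tested.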

How the results depend on the processing

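Of 2192 values of single genes under an alternative, 2085 kept their direction and their side of the threshold. The number of the 8 genes called by diet in WT stem cells was 1 in the reported fit, 0 with no filter, 2 with DESeq2 and 0 with limma, and 0 to 1 with a library left out. By diet in KO stem cells it was 1, then 2 with no filter, 2 with Xist as a covariate, 3 with DESeq2, 2 with limma, and 0 to 2 with a library left out. By genotype in HF stem cells it was 1, then 2 with Xist and 2 with DESeq2. By genotype in HFC stem cells it was 0, then 1 with DESeq2 and 0 to 1 with a library left out. By diet in WT progenitors it was 0, then 1 with no filter, 1 with summed Cyp4a counts, 3 with DESeq2, 1 with limma, and 0 to 3 with a library left out. By genotype in HFC progenitors it was 0, then 1 with no filter, 2 with DESeq2, 1 with limma, and 0 to 2 with a library left out. By diet in KO progenitors it was 2, then 3 with DESeq2 and 1 to 2 with a library left out. By genotype in HF progenitors it was 2, and 1 to 2 with a library left out. The cause was not tested.

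Signs turned for differences that were not called in edgeR: by diet in KO for Dhrs3 in stem cells with limma (-0.05), and in progenitors for Lrat with no filter and with limma (-0.01 in both) and for Bco1 with limma (0.05). They turned also for Rbp2 by genotype in HF progenitors with limma (0.02), and for the interaction of Cyp4a10 in progenitors (-0.81 ± 0.92 as reported) with summed counts (0.14) and with limma (0.47). Dhrs3 between the populations was 0.17 with limma (adjusted p 0.0306), where the median of all genes was 0.27 against 0.02 in edgeR. With a library left out, the log2 differences that took both signs were as follows. Bco1 ran from -0.37 to 0.11 by genotype in HFC stem cells, from -0.01 to 0.18 by genotype in HF progenitors and from -0.23 to 0.02 by diet in KO progenitors. Lrat ran from -0.17 to 0.01 by genotype in HFC progenitors, from -0.05 to 0.14 by genotype in HF progenitors, from -0.08 to 0.11 by diet in KO progenitors and from -0.00 to 0.18 by diet in KO stem cells. Rbp2 ran from -0.55 to 0.29 by genotype in HFC stem cells and from -0.33 to 0.35 by genotype in HF progenitors. Rdh10 ran from -0.17 to 0.00 by genotype in HFC progenitors and from -0.12 to 0.02 by diet in WT progenitors, and Dhrs3 from -0.04 to 0.12 by diet in KO stem cells. For the difference of the genotype effect between populations, Aldh1a1 ran from -0.16 to 0.08 and Retsat from -0.07 to 0.06.

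Over all genes, DESeq2 called 179, no filter 56, Xist 57 and limma 16, against 31 as reported, by diet in WT stem cells. By diet in KO stem cells these were 44, 22, 12 and 16 against 8, and by genotype in HF stem cells 100, 68, 62 and 38 against 55. By genotype in HFC stem cells DESeq2 called 58 against 30. By diet in WT progenitors DESeq2 called 44, no filter 18, summed counts 12, limma 11 and Xist 7 against 11. By diet in KO progenitors DESeq2 called 109 and no filter 67 against 39. By genotype DESeq2 called 184 against 88 in HF progenitors, and in HFC progenitors DESeq2 called 78, no filter 48 and limma 25 against 32. No paired analysis was possible because the columns carry no replicate number.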
